A study of Schizosaccharomyces pombe with 9 samples.

Results

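The intergenic non-coding RNAs of fission yeast (Schizosaccharomyces pombe) were described across 3 strains. They were taken as the counted features whose identifier starts with SPNCRNA and whose deposited product calls them intergenic, leaving out those also called antisense or possible alternative UTR. This gave 321 of 6986 counted features, beside 592 antisense RNAs and 210 RNAs marked as possible alternative UTRs. Of the 321, 225 had enough counts to be tested. The other 96, among them the 12 with no count in any library, had at most 68 counts over the 9 libraries together (median 11.5). Of the 225, 173 passed the filter's level in all 3 groups, 18 in 1 group, and 34 in 0 or 2. Apart from omt3 (SPNCRNA.130) and prl59, they carry no name of their own.

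RNA polymerase II of fission yeast transcribes many short units between protein-coding genes, often from the same promoter region as a neighbouring gene but in the other direction. Most such RNAs are rare in growing cells because the nuclear exosome and its adaptors degrade them, and the position of transcription termination decides whether a non-coding unit runs into the gene that follows it. The best known cases are the long non-coding RNAs upstream of the phosphate genes pho1, pho84 and tgp1, whose transcription represses the gene downstream. The carboxy-terminal domain (CTD) of the polymerase's largest subunit, Rpb1, is a repeated heptad whose Thr4 takes part in the choice of termination site.

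The groups were STF6 and STF9, which per the series are suppressor mutants, and their parent rpb1-CTD-T4A29, called T4A here, whose CTD carries the Thr4 mutation, with 3 libraries each. Which genes the suppressors carry mutations in is not given in the sources used, each group is a single strain, and no strain with a wild-type CTD was analysed here. All cultures were in vegetative log phase in YES medium at 30 °C, and polyadenylated RNA was sequenced, so RNAs without a poly(A) tail are largely missing. No label says whether the libraries of a group came from separate cultures, so the p-values measure the spread between these libraries.

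Total counts ranged from 15374453 to 22909747 per library, and the intergenic RNAs took 0.0777% to 0.114% of them. Levels are CPM, that is, counts corrected for library size with TMM factors. They are not divided by length, so levels of different RNAs are not ranked as molecules. The median tested intergenic RNA had a mean of 2.04 CPM over the 9 libraries, against 42.3 CPM for all 5951 features tested, and the 225 ran from 0.351 to 62.6 CPM. Libraries of 1 strain differed over these RNAs. T4A replicate 3 had the highest value of the 3 T4A libraries for 138 of the 225. The median log2 difference from the T4A mean over the 225 was −0.07, −0.07 and 0.16 in the STF6 libraries, 0.00, −0.04 and −0.01 in the STF9 libraries, and −0.04, −0.16 and 0.20 in the T4A libraries. The median SD between libraries of a group was 0.21 in STF6, 0.19 in STF9 and 0.25 in T4A on the log2 scale. The summed level of 6 heat shock genes was 5235 to 5589 CPM in STF6 and 5026 to 5420 CPM in STF9, against 12298, 16204 and 10265 CPM in T4A. T4A replicate 2 thus had the lowest median difference of the 9 libraries over the intergenic RNAs and the highest sum of the heat shock genes.

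The comparison of each suppressor with its parent asks which of these RNAs changed with the suppressor mutation. In STF6, 27 of the 225 tested intergenic RNAs were higher and 31 lower than in T4A at an adjusted p under 0.05 by edgeR's quasi-likelihood test. Over all 5951 features 19.2% were called higher and 19.2% lower, against 12% and 13.8% of the intergenic RNAs. The median log2 fold of the 225 was −0.02, beside 0.03 over all features. In bulk RNA a change in every cell and a change in a share of the cells cannot be told apart. In STF9, 26 were higher and 36 lower than in T4A, that is 11.6% and 16.0%, where over all features 23.0% were called higher and 21.3% lower. The median was −0.04, beside 0.04 over all features. These counts, and those for parts of the list below, include members that passed the filter only through the group where they are high. SPNCRNA.782 and SPNCRNA.604 are among them, and calls of such members are no support for a difference. With at least 1 CPM required in all 9 libraries, 9 of 127 were higher and 21 lower in STF6, and 10 and 27 in STF9. The share over all features under that filter was not taken. The numbers moved with single libraries: 17 were higher in STF6 without STF6 replicate 3, and 39 without T4A replicate 3. Of the RNAs that rose, 20 in STF6 and 16 in STF9 did so by at least 2-fold. Of those that fell, 11 and 15 did. Over all 5951 features, 142 in STF6 and 141 in STF9 were called and higher by at least 2-fold, and 195 and 190 lower.

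Antisense RNAs and possible alternative UTRs had more calls downward than upward. Of 494 tested antisense RNAs, 25 were higher and 152 lower in STF6 and 24 and 145 in STF9. Of 182 tested RNAs marked as possible alternative UTRs, 13 were higher and 61 lower in STF6 and 14 and 61 in STF9. Of 46 tested non-coding RNAs outside these classes, 7 were higher and 7 lower in STF6 and 6 and 10 in STF9. Whether the intergenic share differs from these was not tested. The share called also varied with the level. Among features averaging 2 to 5 CPM, 8.11% of 74 intergenic RNAs were higher and 16.2% lower in STF6, beside 11.3% and 25.9% of all 417 features of that level. In the same range 6.76% were higher and 17.6% lower in STF9, beside 10.8% and 25.9%. Under 1 CPM, 15.4% of 52 intergenic RNAs were higher and 9.62% lower in STF6, beside 9.69% and 12.1% of all 289 features, and in STF9 9.62% were higher and 11.5% lower, beside 9.69% and 11.8%. At 1 to 2 CPM, 12.3% of 57 intergenic RNAs were higher and 8.77% lower in STF6, beside 8.15% and 23.0% of all 270 features. In STF9 15.8% were higher and 14.0% lower, beside 8.89% and 25.9%. At 5 CPM and over, 14.3% of 42 were higher and 21.4% lower in STF6, beside 21.0% and 18.9% of all 4975. In STF9 these were 16.7% and 21.4%, beside 25.5% and 21.2%.

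**Figure D1:**
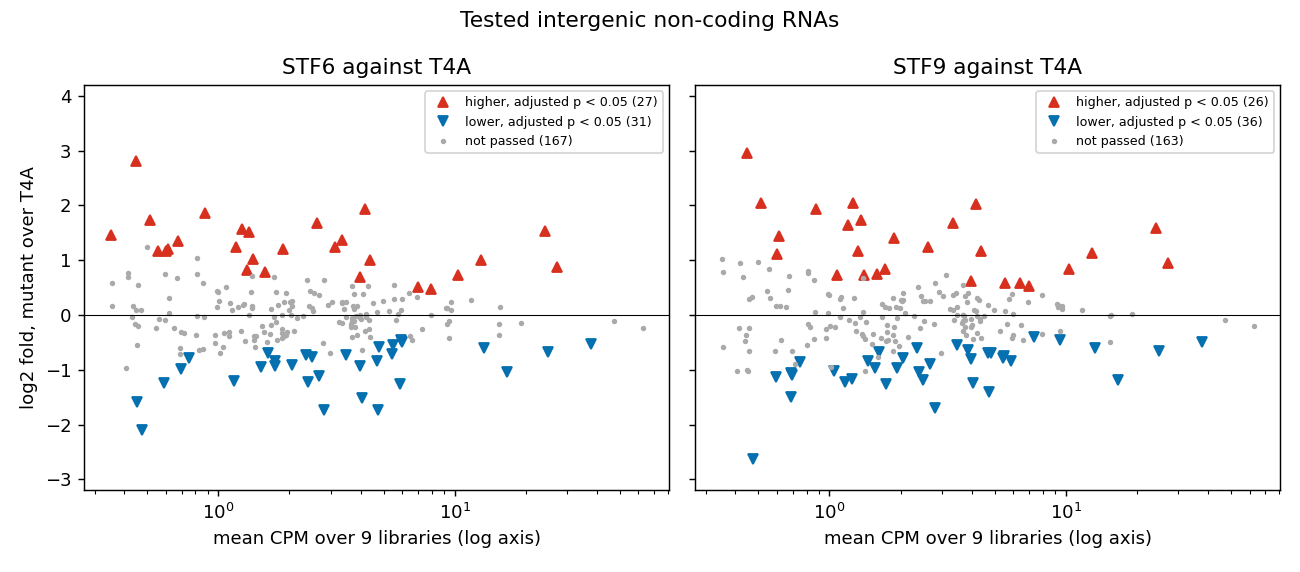
Log2 fold of the 225 tested intergenic RNAs (y axis, mutant over T4A) against their mean CPM over the 9 libraries (x axis, log scale), for STF6 on the left and STF9 on the right. Red upward and blue downward triangles passed an adjusted p under 0.05 (27 and 31 in STF6, 26 and 36 in STF9), and grey points did not. Called RNAs lie on both sides of 0 over most of the range of levels.

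The members lie between coding genes whose order was read from RefSeq's annotation, where 313 of the 321 were placed. Of these, 188 overlapped no counted coding gene, 121 overlapped one on the opposite strand and 5 one on the same strand, so the word intergenic is that of the deposited product names. RefSeq gives 2 of them as snoRNAs. The library kit keeps the strand, but whether the counting used it is not stated in the sources used here, so reads of overlapping features on opposite strands may not be told apart. Calls were found in both kinds. Of 127 tested members with no such overlap, 18 were higher and 20 lower in STF6 and 18 and 23 in STF9. Of 94 tested members that overlap a coding gene on the opposite strand, 9 were higher and 11 lower in STF6 and 8 and 12 in STF9. The RNAs called higher lay in 20 different intervals between coding genes in STF6 and 18 in STF9, and those called lower in 30 and 35, so neighbouring RNAs are counted together in these totals and are not independent of each other.

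The interval with the most members lies on chromosome I between pcs2 (SPAC3H1.10), annotated as a phytochelatin synthetase, and hsr1 (SPAC3H1.11), a transcription factor gene. It holds SPNCRNA.777 to SPNCRNA.784, 4 on each strand. In STF6, 7 of the 8 were higher than in T4A, and in STF9 all 8. Over all features 19.2% were called higher in STF6 and 23.0% in STF9. The count includes members that passed the filter on low counts only through the mutant libraries, SPNCRNA.779 and SPNCRNA.782 among them. Calls of such members are no support for a difference. The interval was singled out after its values were seen, so the count is a description. Their summed level was 15.1, 16.6 and 18.6 CPM in the STF6 libraries and 17.1, 18.1 and 21.9 CPM in the STF9 libraries, against 5.99, 4.25 and 8.54 CPM in the T4A libraries. Every mutant library lay above every T4A library, and T4A replicate 2 was the lowest. Without T4A replicate 2, 6 of 8 were called in STF6 and 7 in STF9, and over the libraries left out in turn the count was 5 to 7 in STF6 and 7 in STF9.

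SPNCRNA.783, which in RefSeq overlaps hsr1 on the opposite strand, was at 4.93, 5.92 and 5.36 CPM in STF6 and 4.84, 5.42 and 6.95 CPM in STF9, against 1.33, 0.574 and 2.18 CPM in T4A. Its log2 fold was 1.93 ± 0.30 (SE) in STF6 (adjusted p = 4.4e-04) and 2.02 ± 0.30 in STF9 (adjusted p = 3.4e-04). SPNCRNA.779, on the strand of both coding genes, was at 1.26, 1.18 and 1.81 CPM in STF6 and 1.85, 1.62 and 2.32 CPM in STF9, against 0.245, 0.287 and 0.795 CPM in T4A. No mutant library overlapped a T4A library for either RNA. The rule for naming required this of all RNAs named for the size of their change, so lack of overlap is no support for them. Over all 5951 features, 1532 lay wholly above T4A and 1460 wholly below it in STF6, and 1708 and 1508 in STF9. The log2 folds of SPNCRNA.779 were 1.56 ± 0.39 and 2.04 ± 0.37 (adjusted p = 0.0074 and 0.0011). Of its T4A libraries only replicate 3 reached the filter's level of 0.493 CPM. SPNCRNA.779 was thus tested only through the mutant libraries, where it is high, and its fold, p and lack of overlap are no support for a difference.

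SPNCRNA.777 overlaps pcs2 at the other end of the interval and had log2 folds of 1.00 ± 0.23 in STF6 and 1.17 ± 0.23 in STF9 (adjusted p = 0.0050 and 0.0018). SPNCRNA.780 had 1.23 ± 0.34 and 1.64 ± 0.33 (adjusted p = 0.013 and 0.0020), the first of which missed the threshold without STF6 replicate 3 (adjusted p = 0.057). The other 4 members are rarer than the rule for naming allows and are given because of their place. SPNCRNA.782 had 2.81 ± 0.54 in STF6 and 2.95 ± 0.54 in STF9 but only 80 counts in all. At 0.147, 0.0574 and 0.0419 CPM in T4A, it was tested only through the mutant libraries, where it is high. SPNCRNA.781 had 1.87 ± 0.43 and 1.93 ± 0.43, and SPNCRNA.784 had 1.20 ± 0.41 and 1.45 ± 0.40. SPNCRNA.778 alone did not pass in STF6 (0.50 ± 0.28, adjusted p = 0.17) and passed in STF9 (0.73 ± 0.28, adjusted p = 0.046).

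The coding genes at both ends moved less. hsr1 was at 129, 122 and 129 CPM in STF6 and 118, 120 and 119 CPM in STF9, against 90.9, 98.5 and 84.5 CPM in T4A, with log2 folds of 0.48 ± 0.07 and 0.38 ± 0.07 that both passed. pcs2 had 0.28 ± 0.12 in STF6, which did not pass, and 0.45 ± 0.12 in STF9, which did.

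**Figure D2:**
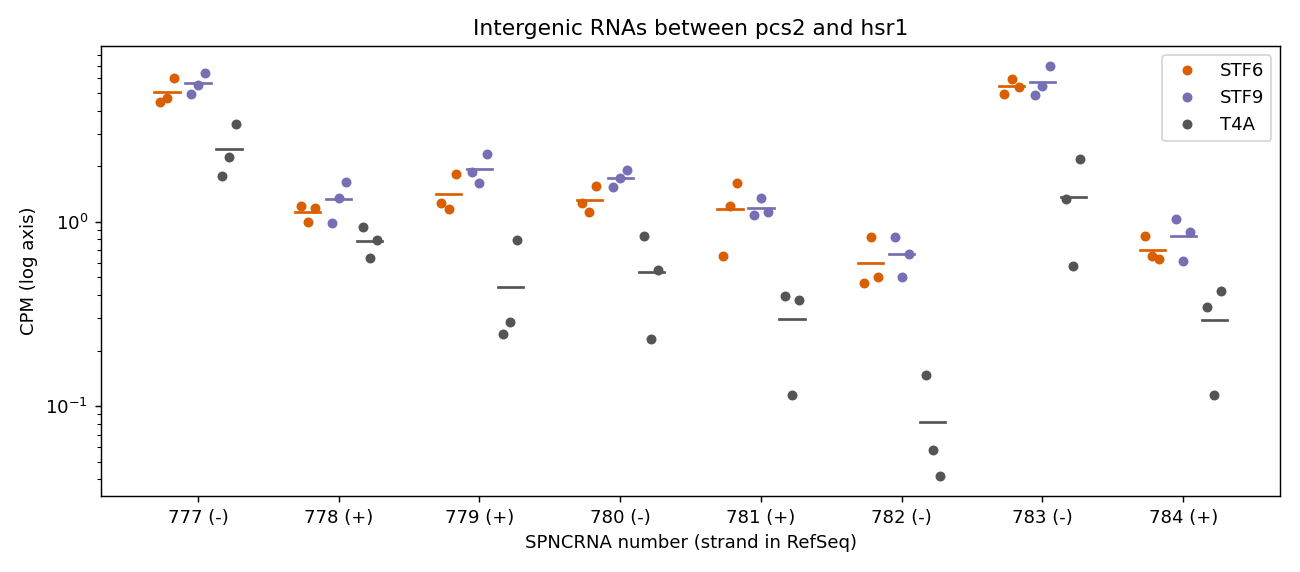
CPM (y axis, log scale) of the 8 intergenic RNAs between pcs2 and hsr1 (x axis, with the strand) in each library. Points are libraries (STF6 orange, STF9 purple, T4A grey) and lines are group means. For each RNA the points of both mutants lie above those of T4A, most narrowly for SPNCRNA.778.

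A second group of members lies on chromosome II around SPBPB7E8.01, a gene for a predicted cell surface protein held by a GPI anchor. SPNCRNA.1606, which overlaps it on the opposite strand, was among the most abundant members, with 29.4, 28.9 and 33.2 CPM in STF6 and 26.6, 32.5 and 35.9 CPM in STF9, against 10.3, 8.04 and 13.1 CPM in T4A. That is a log2 fold of 1.53 ± 0.17 in STF6 (adjusted p = 2.7e-05) and 1.59 ± 0.17 in STF9 (adjusted p = 2.4e-05), and no mutant library overlapped a T4A library. SPBPB7E8.01 itself was at 2263, 2279 and 2235 CPM in STF6 and 2268, 2232 and 2295 CPM in STF9, against 771, 1029 and 810.2 CPM in T4A (log2 fold 1.38 ± 0.11 in each).

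SPNCRNA.1605, between SPBPB7E8.01 and the mRNA-binding zinc finger gene zfs1, was at 1.07, 1.92 and 1.93 CPM in STF6 and 2.16, 1.73 and 1.75 CPM in STF9, against 0.147, 0.517 and 0.963 CPM in T4A. All mutant libraries were above those of T4A. Its log2 folds were 1.52 ± 0.43 and 1.73 ± 0.42 (adjusted p = 0.014 and 0.0060), and the STF6 call was lost without STF6 replicate 2 or 3 (adjusted p = 0.069 and 0.058). T4A replicates 1 and 2 were below the filter's level before TMM scaling. SPNCRNA.1605 was thus tested only through the mutant libraries, where it is high, and these values are no support for a difference. zfs1 did not pass in either mutant (−0.10 ± 0.11 and −0.13 ± 0.11).

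On the other side of SPBPB7E8.01 the direction was the opposite. SPNCRNA.1607, which overlaps SPBPB7E8.02, a gene of the PSP1 family, was at 1.40, 1.48 and 1.87 CPM in STF6 and 1.60, 0.783 and 2.42 CPM in STF9, against 4.76, 6.14 and 4.81 CPM in T4A. It fell by 1.73 ± 0.28 in STF6 and by 1.69 ± 0.28 in STF9 on the log2 scale (adjusted p = 5.5e-04 and 6.9e-04). SPBPB7E8.02 fell as well, by 1.17 ± 0.13 in STF6 and 1.17 ± 0.13 in STF9. SPNCRNA.1604, in the same interval as the RNAs that rose, was lower (−0.98 ± 0.34 and −1.09 ± 0.35, adjusted p = 0.038 and 0.025), with 125 counts in all. It was named after its values were seen.

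The isp4 locus on chromosome II holds RNAs with unlike values. isp4, an oligopeptide transporter gene, was at 89.4, 105 and 104 CPM in STF6 and 96.0, 97.7 and 87.0 CPM in STF9, against 20.5, 24.1 and 19.7 CPM in T4A (log2 folds 2.22 ± 0.10 and 2.13 ± 0.10). SPNCRNA.1442, upstream of it on the opposite strand, was at 1.44, 1.44 and 1.31 CPM in STF6 and 1.65, 1.84 and 1.85 CPM in STF9, against 0.883, 0.517 and 0.921 CPM in T4A. Its log2 folds were 0.82 ± 0.25 in STF6 and 1.17 ± 0.25 in STF9 (adjusted p = 0.022 and 0.0028). T4A replicate 2 was below the filter's level before TMM scaling. SPNCRNA.1442 was thus tested only through the mutant libraries, where it is high, and these values are no support for a difference. The STF6 call did not hold without T4A replicate 2 (adjusted p = 0.076), STF6 replicate 1 (adjusted p = 0.072) or STF6 replicate 2 (adjusted p = 0.075), or by DESeq2 (adjusted p = 0.062).

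SPNCRNA.1443 lies in the same interval and on the same strand as SPNCRNA.1442 and was far more abundant. It had 45.7, 41.7 and 50.5 CPM in STF6 and 51.6, 44.3 and 43.8 CPM in STF9, against 46.8, 54.2 and 47.2 CPM in T4A. The libraries of the 3 groups overlapped, and its log2 folds were −0.10 ± 0.11 in STF6 and −0.08 ± 0.11 in STF9.

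The tgp1 locus holds the member nearest to a gene of the phosphate regulon. SPNCRNA.1343 is the nearest counted feature upstream of tgp1, which encodes a glycerophosphodiester transporter, and runs in the opposite direction. It was at 3.26, 3.22 and 4.80 CPM in STF6 and 5.0, 4.64 and 5.30 CPM in STF9, against 8.93, 7.69 and 10.1 CPM in T4A. Every mutant library was below every T4A library. It fell by 1.27 ± 0.18 on the log2 scale in STF6 (adjusted p = 2.2e-04) and by 0.84 ± 0.18 in STF9 (adjusted p = 0.0026).

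Across the same libraries tgp1 was at 267, 244 and 225 CPM in STF6 and 186, 194 and 176 CPM in STF9, against 8.25, 12.5 and 7.07 CPM in T4A, or 4.74 ± 0.16 and 4.34 ± 0.16 on the log2 scale. The regulatory RNA nc-tgp1 lies on tgp1's strand and in RefSeq overlaps both tgp1 and SPNCRNA.1343. It was not among the counted features and is not analysed here, and how far its reads enter the count of SPNCRNA.1343 was not tested. For pho1 and pho84 the nearest counted feature upstream was not an intergenic RNA.

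**Figure D3:**
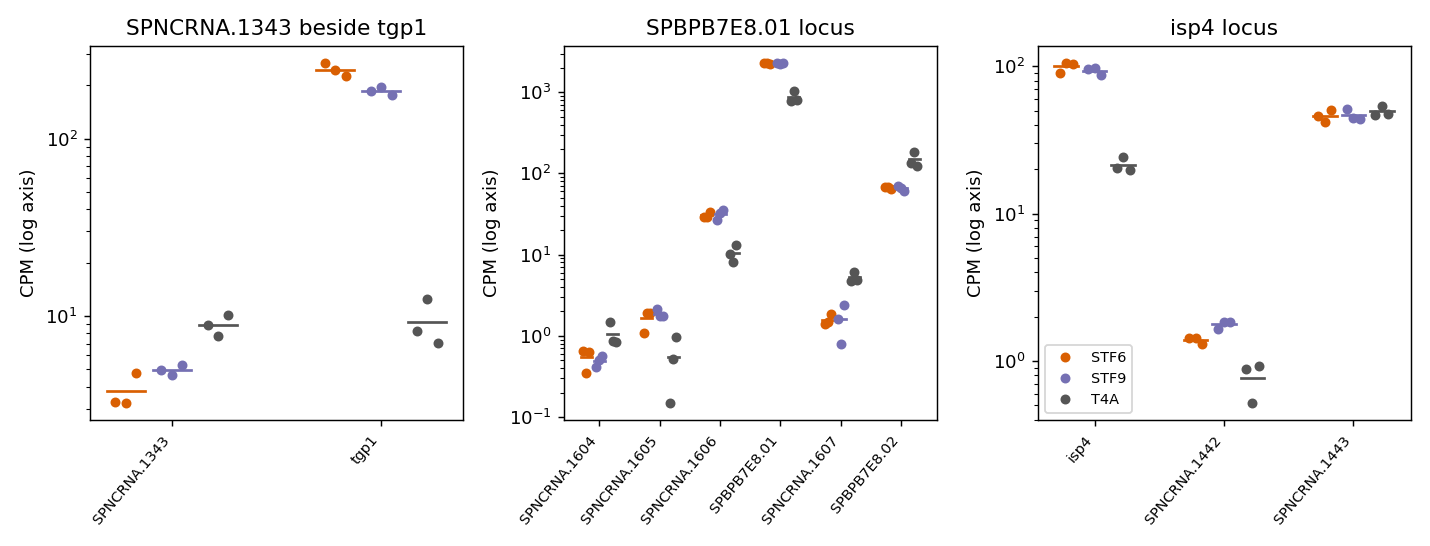
CPM (y axes, log scale, not divided by length) of intergenic RNAs and coding genes at the tgp1, SPBPB7E8.01 and isp4 loci in each library, with STF6 in orange, STF9 in purple and T4A in grey, and lines at group means. SPNCRNA.1343 is lower in both mutants while tgp1 is higher. SPNCRNA.1605 and SPNCRNA.1606 are higher with SPBPB7E8.01 while SPNCRNA.1604 and SPNCRNA.1607 are lower. SPNCRNA.1443 overlaps between groups. SPNCRNA.1605 and SPNCRNA.1442 were tested only through the mutant libraries, so their higher points are no support for a difference.

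Other members that rose stood alone in their intervals or apart from the loci above. SPNCRNA.1431, between a magnesium transporter gene of the CorA family and tom40, which encodes the pore of the mitochondrial import complex, was at 4.14, 4.22 and 3.05 CPM in STF6 and 3.40, 2.85 and 2.21 CPM in STF9, against 0.785, 1.78 and 1.09 CPM in T4A. Its log2 folds were 1.68 ± 0.28 and 1.24 ± 0.29 (adjusted p = 5.7e-04 and 0.0047). Neither mutant overlapped T4A, and neither neighbour was higher, with tom40 at −0.23 in STF6 and −0.30 in STF9.

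SPNCRNA.909, which overlaps the mitochondrial NADH dehydrogenase gene nde2 and the cullin gene pcu4 on the opposite strand, was at 3.07, 3.31 and 5.17 CPM in STF6 and 4.12, 4.47 and 5.51 CPM in STF9, against 1.86, 1.21 and 1.30 CPM in T4A. It rose by 1.38 ± 0.26 and 1.68 ± 0.25 (adjusted p = 0.0013 and 3.2e-04), and nde2 by 1.08 ± 0.10 and 1.03 ± 0.10. SPNCRNA.1116, one of the 10 most abundant members, was at 26.1, 34.2 and 34.2 CPM in STF6 and 30.0, 32.8 and 36.3 CPM in STF9, against 17.6, 13.8 and 19.8 CPM in T4A (0.88 ± 0.15 and 0.95 ± 0.15). The gene upstream of it on the opposite strand, SPCC1235.01, which encodes a protein found in this genus alone, rose by 1.45 ± 0.20 and 1.54 ± 0.20.

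SPNCRNA.1244, which overlaps the predicted amino acid permease gene SPCC74.04, rose by 1.21 ± 0.28 in STF6 and 1.40 ± 0.28 in STF9 (adjusted p = 0.0051 and 0.0019), while the permease gene did not pass (−0.40 and −0.25). SPNCRNA.1197 lies upstream of SPCC11E10.01, a predicted cystathionine beta-lyase gene with a log2 fold of 2.70 ± 0.09 in each mutant, and overlaps the membrane protein gene SPCC61.05 (−0.27 and −0.34). SPNCRNA.1197 rose by 1.02 ± 0.27 in STF6 (adjusted p = 0.010). In STF9 it was at 0.74 ± 0.28 (adjusted p = 0.048), a call that was lost under several settings, with an adjusted p of 0.20 without STF9 replicate 1, 0.14 without STF9 replicate 3, 0.12 without T4A replicate 1, 0.081 without T4A replicate 3 and 0.11 by DESeq2.

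The named member omt3, or SPNCRNA.130, lies between mei2, which encodes an RNA-binding regulator of meiosis, and omt2. It was at 4.84, 4.44 and 3.93 CPM in STF6 and 3.86, 2.96 and 2.47 CPM in STF9, against 1.72, 0.861 and 2.85 CPM in T4A. The STF6 libraries lay above those of T4A, and the STF9 libraries overlapped them. Its log2 fold was 1.24 ± 0.30 in STF6 (adjusted p = 0.0069) and 0.73 ± 0.32 in STF9, where it did not pass (adjusted p = 0.077) unless T4A replicate 3 was left out (1.23, adjusted p = 0.0046). SPNCRNA.945, in the interval upstream of the proton pump gene pma1, was rarer than the rule for naming allows, with 91 counts, and was tested only through the mutant libraries, where it is high. It had log2 folds of 1.74 ± 0.37 and 2.05 ± 0.36 (adjusted p = 0.0031 and 9.0e-04), while pma1 was at 0.02 and 0.01.

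The largest decrease among the members named by the rule was in SPNCRNA.1099 in STF6. It lies on chromosome III downstream of nic1, which encodes a nickel transporter, and overlaps the glyoxylase gene hsp3101 on the opposite strand. It was at 2.51, 2.57 and 2.49 CPM in STF6 and 3.35, 3.35 and 2.88 CPM in STF9, against 7.80, 10.6 and 6.99 CPM in T4A. It fell by 1.74 ± 0.19 in STF6 and 1.40 ± 0.18 in STF9 (adjusted p = 2.1e-05 and 1.1e-04). SPNCRNA.1097, on the other side of nic1, had 34.2, 32.2 and 31.9 CPM in STF6 and 34.6, 33.7 and 31.8 CPM in STF9, against 44.2, 55.8 and 41.5 CPM in T4A, and fell by 0.52 ± 0.12 and 0.50 ± 0.12. Neither RNA overlapped between a mutant and T4A, while nic1 did not pass (−0.08 and −0.04). hsp3101 did not pass in STF6 (0.07 ± 0.14) and rose in STF9 (0.44 ± 0.14, adjusted p = 0.024).

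SPNCRNA.810 fell by 1.52 ± 0.20 and 1.24 ± 0.20 (adjusted p = 1.3e-04 and 5.3e-04), with 1.95, 2.35 and 2.87 CPM in STF6 and 2.52, 3.07 and 3.04 CPM in STF9, against 5.55, 8.44 and 6.53 CPM in T4A. Of its neighbours, ymc1, a mitochondrial carrier gene downstream, rose (0.69 and 0.61) and SPAC4G9.22 upstream fell (−0.65 and −0.70). SPNCRNA.1296 was at 13.2, 9.19 and 15.5 CPM in STF6 and 12.7, 11.6 and 9.98 CPM in STF9, against 24.0, 24.9 and 29 CPM in T4A. It fell by 1.05 ± 0.18 and 1.19 ± 0.18 (adjusted p = 6.5e-04 and 3.0e-04), and the gene upstream on the opposite strand, the spermidine family transporter gene SPCC569.05c, fell by 1.23 ± 0.12 and 1.15 ± 0.12.

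SPNCRNA.648 lies upstream of the iron-sensing regulator gene fep1 and overlaps the DNA repair nuclease gene mre11. It fell by 1.22 ± 0.24 and 1.04 ± 0.24, and neither of those genes passed. SPNCRNA.1169, which overlaps the metallopeptidase gene erm1, fell by 1.11 ± 0.18 in STF6 and 0.90 ± 0.17 in STF9. SPNCRNA.679, downstream of which a GTPase activator gene (SPAC4G8.04) also fell (−0.65 and −0.68), fell by 0.93 ± 0.17 and 0.81 ± 0.17. SPNCRNA.1625, upstream of the MADS-box factor gene mbx2, was among the 10 most abundant and fell by 0.67 ± 0.11 and 0.65 ± 0.11. All of these passed in both mutants.

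Some calls of a decrease were lost when 1 library was left out, while the fold stayed below 0. SPNCRNA.1190 near the glucan synthase gene ags1 was at −1.20 ± 0.35 and −1.23 ± 0.36 (adjusted p = 0.017 and 0.015) and missed the threshold without STF6 replicate 1, STF6 replicate 2 or T4A replicate 1 in STF6 (−0.99, −1.03 and −1.11, adjusted p = 0.087, 0.085 and 0.053) and without STF9 replicate 1 in STF9 (−0.97, adjusted p = 0.065). SPNCRNA.963, beside the translation factor gene tif51, was at −0.84 ± 0.23 in STF6 (adjusted p = 0.012). Without STF6 replicate 1 or 2 it was at −0.81 and −0.70 (adjusted p = 0.050 and 0.063). It was at −1.27 ± 0.24 in STF9 (adjusted p = 0.0015). SPNCRNA.1088 was at −0.77 ± 0.22 in STF6 (adjusted p = 0.014), at −0.66 without T4A replicate 1 (adjusted p = 0.053), and at −1.19 ± 0.23 in STF9 (adjusted p = 0.0015).

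Some members named by the rule for a decrease passed in a single mutant, as did others that are not named here. SPNCRNA.767 was at −0.95 ± 0.27 in STF6 (adjusted p = 0.014, but 0.056 without T4A replicate 3 and 0.066 without STF6 replicate 2) and at −0.54 ± 0.26 in STF9 (adjusted p = 0.11, but 0.024 without T4A replicate 2). SPNCRNA.1676, upstream of the U2 snRNP gene lea1, was at −0.29 ± 0.27 in STF6 and −1.18 ± 0.31 in STF9 (adjusted p = 0.42 and 0.0090). SPNCRNA.1474, which overlaps the exchange factor gene spo14, was at −0.32 ± 0.29 and −0.97 ± 0.31 (adjusted p = 0.40 and 0.024). The STF9 call of SPNCRNA.1474 was lost without STF9 replicate 2, STF9 replicate 3 or T4A replicate 3 (adjusted p = 0.092, 0.073 and 0.11). None of the 3 differed between the mutants at an adjusted p under 0.05.

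SPNCRNA.604 had the lowest log2 fold of any tested member in both mutants, with −2.10 ± 0.39 in STF6 and −2.63 ± 0.43 in STF9 (adjusted p = 0.0013 and 5.5e-04). It is named after its values were seen and had 85 counts in all. It passed the filter on low counts only through the T4A libraries, where it is high, so its fold and p are no support for a difference. Its level was 0.186, 0.261 and 0.249 CPM in STF6 and 0.206, 0.0559 and 0.206 CPM in STF9, against 1.08, 1.26 and 0.753 CPM in T4A. It lies upstream of str3 on the same strand. str3, a siderophore-iron transporter gene with few counts as well, was at 0.883, 1.21 and 0.712 CPM in T4A. It too passed the filter only through the T4A libraries, where it is high. Its log2 folds of −2.29 ± 0.43 and −3.04 ± 0.49 are thus no support for a difference.

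**Figure D4:**
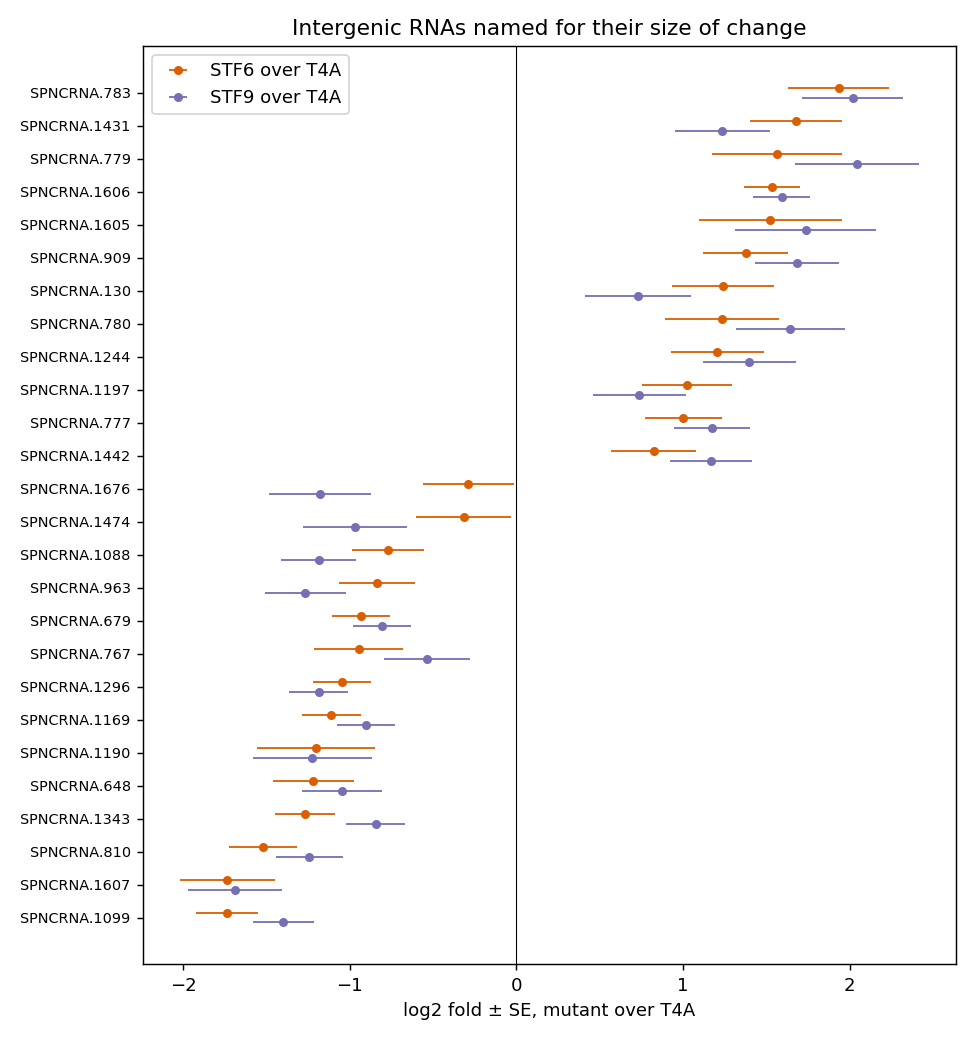
Log2 fold over T4A (x axis, bars are ± 1 SE) of the 26 intergenic RNAs named by the rule for the size of their change (y axis, ordered by the STF6 value), with STF6 in orange above STF9 in purple. SPNCRNA.783 is at the top with 1.93 and 2.02, and SPNCRNA.1099 at the bottom with −1.74 and −1.40.

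Of the 10 members with the highest mean CPM, 5 did not pass in either mutant. SPNCRNA.111, which lies upstream of the mating and meiosis regulator gene ste11 and overlaps the cytochrome c heme lyase gene cyc3, was the most abundant by CPM, with 59.0, 58.1 and 59.2 CPM in STF6 and 63.9, 62.5 and 54.0 CPM in STF9, against 60.4, 79.7 and 66.8 CPM in T4A. Its log2 folds were −0.23 ± 0.11 and −0.20 ± 0.11 (adjusted p = 0.10 and 0.14), and it passed in STF6 without T4A replicate 1 (−0.32, adjusted p = 0.038). ste11 was at 0.57 ± 0.14 in STF6, which passed, and 0.36 ± 0.14 in STF9, which did not. SPNCRNA.671 was at −0.14 ± 0.11 and 0.02 ± 0.11, SPNCRNA.438 at 0.14 ± 0.14 and 0.01 ± 0.14, and SPNCRNA.975 at −0.16 ± 0.12 and −0.03 ± 0.12.

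The coding neighbours were then set beside the members as a whole. In the first pairing a member was set beside the coding gene upstream of it on the opposite strand, and each coding gene was counted once per class. Genes that overlap the member were kept in this and in the other pairings. Where the member rose in STF6, 8 of 19 such genes rose and 1 fell. Where it fell, 6 of 26 rose and 8 fell, and where it did not pass, 34 of 147 rose and 30 fell. In STF9 the counts were 9 of 19 higher and 1 lower where the member rose, 4 of 31 higher and 11 lower where it fell, and 31 of 143 higher and 38 lower where it did not pass.

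SPNCRNA.1606, SPNCRNA.909, SPNCRNA.1116 and SPNCRNA.1197 belong to the pairs that rose together, as does SPNCRNA.1442, whose call is no support for a difference. SPNCRNA.1607 and SPNCRNA.1296 belong to those that fell together. Of these, SPNCRNA.1606, SPNCRNA.909 and SPNCRNA.1607 overlap the gene they are paired with. How far reads of that gene enter their counts was not tested. SPNCRNA.1343 with tgp1 and SPNCRNA.1088 with SPAC922.04 (0.80 and 0.63) are pairs of opposite direction. Across the 200 pairs with both tested, the correlation of log2 folds was weak, with Pearson's r of 0.15 in STF6 and 0.17 in STF9 and Spearman's rho of 0.17 and 0.15. Pairs of 1 interval share a gene and all pairs share the same libraries, so these describe the pairs and are not a test. Coding genes downstream of the member on the same strand had a Pearson's r of 0.23 in STF6 and 0.24 in STF9 and a Spearman's rho of 0.16 and 0.066 over 121 pairs. Where the member rose, 4 of 12 such genes rose and 2 fell in STF6 and 3 and 3 in STF9. Where it fell, 2 of 15 rose and 4 fell in STF6, and 2 of 20 rose and 7 fell in STF9. Coding genes downstream on the opposite strand had a Pearson's r of −0.03 and −0.02 over 92 pairs. Counted by member, 0 of 13 rose and 1 fell in STF6 where the member rose, and 4 of 11 and 1 in STF9. Where it fell, 3 of 14 rose and 4 fell in STF6, and 6 of 15 and 1 in STF9. For upstream genes on the same strand, r was 0.095 and 0.097 over 21 pairs. Where the member rose, 0 of 5 rose in STF6 and 4 of 4 in STF9. Whether the arrangements differ was not tested.

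**Figure D5:**
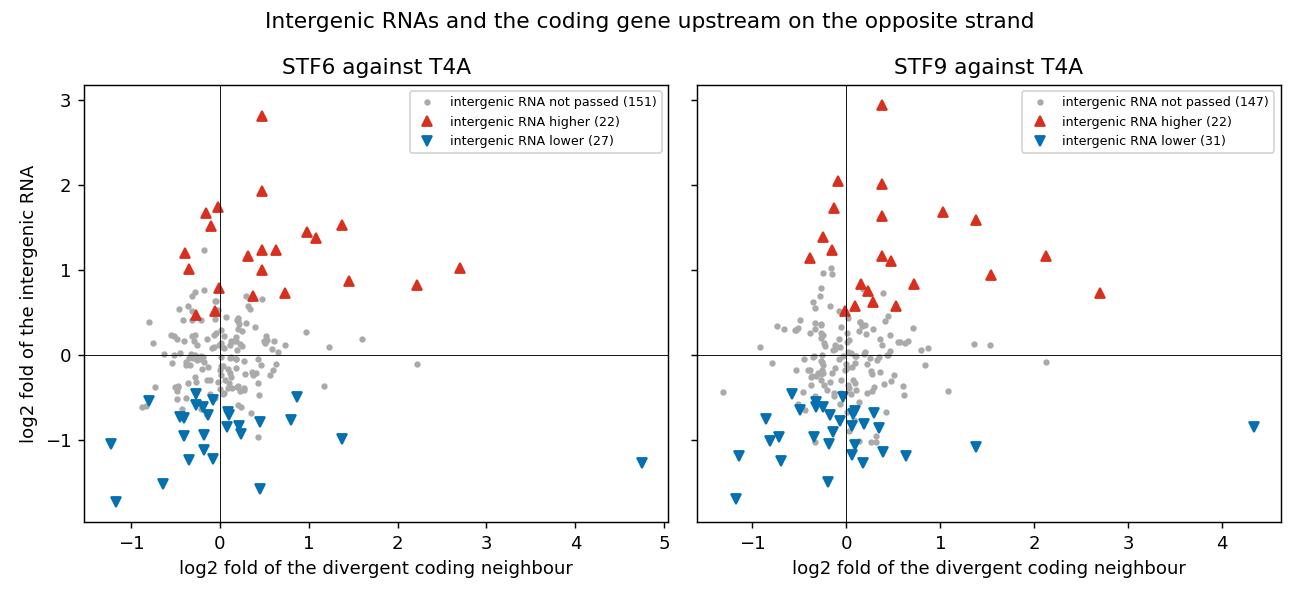
Log2 fold of an intergenic RNA (y axis) against that of the coding gene upstream of it on the opposite strand (x axis), for STF6 on the left and STF9 on the right, 200 pairs each. Overlapping pairs are included. Red upward triangles are RNAs called higher, blue downward triangles RNAs called lower, and grey points did not pass. The point at far right is SPNCRNA.1343 with tgp1 (4.74 in STF6 and 4.34 in STF9).

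Genes of nuclear RNA elimination, which degrade or mark such RNAs, were listed as a set. Of 27 tested (28 listed), 9 were higher and 2 lower in each mutant. Over all features, 19.2% were called higher and 19.2% lower in STF6 and 23.0% and 21.3% in STF9. The median log2 fold of the list was 0.16 in STF6 and 0.23 in STF9, beside 0.03 and 0.04 over all features. The exosome nuclease gene rrp6 rose by 0.52 ± 0.16 and 0.63 ± 0.16, and red1, which encodes a scaffold of the elimination machinery, by 0.64 ± 0.15 and 0.74 ± 0.15. The 2 that fell were the Argonaute gene ago1 (−0.40 ± 0.10 and −0.46 ± 0.10) and the exosome subunit gene rrp43 (−0.25 ± 0.07 and −0.28 ± 0.07). The exosome subunit genes rrp4, rrp45, rrp46 and csl4 did not pass in either mutant. Nor did mmi1, which encodes the reader of meiotic RNAs (0.16 ± 0.11 and 0.15 ± 0.11). The summed level of the list was 1809.8 to 1849 CPM in STF6 and 1827 to 1931 CPM in STF9, against 1552 to 1698 CPM in T4A. Its part in the levels of the intergenic RNAs was not tested.

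Among 8 tested mRNAs of the meiosis list, edgeR called 0 higher and 1 lower in STF6, and 1 higher and 1 lower in STF9. In STF6, mei2 (0.64 ± 0.24) was the only one higher at an unadjusted p under 0.05. The one that fell in both was the meiotic transcription factor gene mei4 (−0.83 ± 0.17 and −0.82 ± 0.17), and the one that rose in STF9 was meu6 (0.89 ± 0.22). All 6 heat shock genes listed were lower in both mutants, with medians of −1.34 and −1.42.

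All 321 members were also taken as a single value. Their summed level was 874, 874 and 1004 CPM in STF6 and 915, 921 and 909.9 CPM in STF9, against 907, 904 and 1045 CPM in T4A. The libraries overlapped, with 1 high library in STF6 and 1 in T4A. Mean sums were 917 ± 74.9 CPM in STF6, 915 ± 5.52 CPM in STF9 and 952 ± 80.5 CPM in T4A (SD, n = 3 each). The difference from T4A was −34.7 CPM for STF6 and −36.8 CPM for STF9 (two-sided exact permutation p = 0.5 and 1). With 3 against 3 libraries the smallest p possible is 0.1, so this test could not pass 0.05. Without T4A replicate 3 the difference was 11.5 and 9.54 CPM.

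The suppressors were compared with each other last. In STF9 against STF6, 0 of the 225 were higher and 0 lower by edgeR, where 0% of all 5951 features were called in either direction. At an unadjusted p under 0.05 there were 8 members, by DESeq2 0 passed, and in a fit of the 6 mutant libraries alone 0 members passed among 17 features called. The smallest adjusted p of a member was 0.98 over all 9 libraries and 0.18 in that smaller fit. SPNCRNA.1676 had the log2 difference −0.89 ± 0.32 (unadjusted p = 0.016), and SPNCRNA.1343 was at 0.42 ± 0.19 (unadjusted p = 0.044). A p that misses the threshold does not show that the mutants have the same level of these RNAs.

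At an adjusted p under 0.05, the authors' deposited table for STF6 held 30 of the intergenic RNAs as higher and 41 as lower, of which 26 and 31 were also called here. By the same threshold, their table for STF9 held 28 as higher and 51 as lower, of which 24 and 35 were also called here, and 0 had opposite directions in either comparison. The authors' tables give an adjusted p for 313 members in STF6 and 278 in STF9, against 225 tested here, so the counts rest on unlike sets. The share over all features in those tables was not taken.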

How the data were processed

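Poly(A)+ RNA was measured in 9 libraries. Build ASM294v2 and the tools HISAT2 2.1.0, HTSeq 0.10.0, SAMtools and DESeq2 are named in the submitters' processing notes, with no roles. Strand setting, annotation and the handling of multiply matching reads are not stated there. Deposited by the authors were raw counts per gene, which are whole numbers, and 2 tables of their own comparisons, which per the file headers hold log2 fold changes with a Wald score, p-values and normalized counts (signal) averaged by group. From the tables only the product names and the calls were used.

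Features kept by filterByExpr (5951) were scaled by TMM and tested in edgeR 4.0.16 (R 4.3.3) by the quasi-likelihood test on the 9 libraries together, with a term for group. Benjamini-Hochberg adjustment ran over the 5951, and a feature rose or fell where its adjusted p was under 0.05. SE is the log2 fold over the root of F. The members, lists and naming rule were chosen with earlier results of these data known. For each mutant the rule named the 10 largest folds each way over T4A among called members that averaged a log2 CPM of 0 or more and whose libraries did not overlap between groups, the 10 members of highest mean CPM and those next to pho1, pho84 or tgp1. The heat shock, meiosis and RNA elimination lists were checked in the same fit. RefSeq's annotation of ASM294v3 was used for gene order and overlap alone. As its build differs from the authors', no coordinates or sequences are given and the motif search that had been planned was not run. The fit was tested on simulated counts. The alternatives tried were library size alone, median-ratio scaling, 2 other filters, DESeq2 1.42.0, 6 libraries, the replicate number as a block, a 2-fold threshold, and each library left out in turn. Figures were drawn with matplotlib 3.10.9.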

Additional observations from a re-analysis of the deposited data

How the results depend on the processing

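Counts of intergenic RNAs stayed within 1.5 times under DESeq2, no filter, library size alone, median-ratio scaling, the fit of the 6 libraries compared and the replicate block. With at least 1 CPM required in all 9 libraries, 127 were tested and 9 were higher in STF6 and 10 in STF9. A 2-fold threshold left 11 lower in STF6, and 16 higher and 15 lower in STF9. Leaving out 1 library at a time gave 17 to 39 higher and 21 to 41 lower in STF6, and 18 to 33 higher and 26 to 44 lower in STF9, the lowest of the first without STF6 replicate 3. Medians ran from −0.11 to 0.11 in STF6 and −0.09 to 0.09 in STF9, so they have no firm sign.

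Summed levels changed sign. The STF6 difference was 0.445 CPM with library size alone and −99.4 to 11.5 CPM with 1 library left out, that of STF9 −60.5 to 9.54 CPM, and that of STF9 over STF6 −29.7 to 46.05 CPM. The cause was not tested. DESeq2, the smaller fit and the block give no sum.

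Of 854 recomputed folds of the named RNAs, 805 kept their direction and side of the threshold, 31 lost the call, 3 gained it and 15 changed sign, 0 of them called. In STF9 SPNCRNA.671 was at −0.014 with median-ratio scaling and −0.011 by DESeq2, and SPNCRNA.438 at −0.027, −0.024, −0.0011 and −0.0059 with median-ratio scaling, DESeq2, the 1 CPM filter and the smaller fit. SPNCRNA.975 was at 0.019 with library size alone. With 1 library left out, the STF9 ranges were −0.047 to 0.041 for SPNCRNA.671, −0.084 to 0.18 for SPNCRNA.438 and −0.084 to 0.023 for SPNCRNA.975, and the STF6 range for SPNCRNA.1474 was −0.49 to 0.068.

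Same-numbered libraries correlated at −0.306 to 0.380 in their deviations from group means, so the numbers were not taken to pair them. With the number as a block, 31 were higher and 30 lower in STF6, 23 and 37 in STF9, and 0 between the mutants. Counts of the interval between pcs2 and hsr1 were recomputed as alternatives chosen after seeing the data, and by DESeq2 were 6 of 8 in STF6 and 7 of 8 in STF9.

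Depth limits the 96 untested RNAs and those under 1 CPM, whose values rest on few counts per library, and tests over 3 libraries a group cannot show small differences at these levels.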
